A study of Mus musculus with 8 samples.

Results

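The acute-phase genes Saa1, Saa2 and Saa3, which encode serum amyloid A proteins, and Lcn2, which encodes lipocalin-2, were followed in distal colon epithelium of wild-type mice and of mice with a mutated lipid desaturase and hydroxylase gene, Degs2. They were picked by symbol as acute-phase genes that epithelium is known to switch on in response to microbes, with their difference between the genotypes already known, so that difference is given as a description, with no p-value for any of them. These 4 genes are 4 of the 54141 gene IDs counted. The study compared 4 libraries of wild-type mice (WT) with 4 libraries of mice carrying a homozygous Degs2 mutation (Degs2_KO), all on a c57bl6/j background. The labels name no promoter or cell type that would restrict the mutation, and they give neither the age of the mice nor whether each library came from a separate mouse. Epithelial cells were freed from the colon wall with EDTA and strained, and total RNA was sequenced. Libraries held between 32.8 and 49.8 M fragments. Levels are given in CPM, the share of a library's counts scaled to a common total and normalized between libraries by the trimmed mean of M values (TMM).

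Serum amyloid A proteins are small lipid-carrying apolipoproteins that also bind retinol. The liver secretes them into blood in the acute-phase response, when cytokines such as IL-6 and IL-1 act through STAT3, NF-kappaB and C/EBP factors. In the gut, epithelial cells make them locally: bacteria that attach to the epithelium induce Saa1 and Saa2, largely through IL-22 from innate lymphoid cells, and the proteins in turn act on nearby T cells. Saa3 is the form best known from macrophages, fat and mucosal epithelium. Lipocalin-2 binds the siderophores with which bacteria collect iron, is stored in neutrophil granules, and is widely used as a marker of an inflamed gut. The study's title links Degs2 to intestinal inflammation, and the levels of these genes bear on how far the acute-phase response was on in the sampled cells.

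The data bear out the label in part. Saa1 was abundant in every library, whereas Saa2 and Saa3 were scarce and Lcn2 was at the limit of detection in both genotypes. Epithelial markers such as Krt8 and Lgals4 summed to between 16822 and 24293 CPM. Of 13 neutrophil markers 9 had at most 3 fragments in every library, and Mpo and Elane had 0. Of the other markers, Cd177 was at 414 CPM and Ly6g at 27.1 CPM on average, and these were the 2 that passed the filter on low counts. The targeted gene Degs2 lay between 106 and 151 CPM in WT and between 47.7 and 65.9 CPM in Degs2_KO, a mean of 47.8% of WT, so that RNA of the mutated gene was still counted. WT replicate 1 and Degs2_KO replicate 3 stood apart from the other 6 libraries in genes of gut position. Hoxd13, a homeobox gene of the hindgut, was at 0.695 and 0.300 CPM in those libraries and between 38.8 and 85.3 CPM in the others. Slc10a2, the bile acid transporter of the ileum, was at 101 and 70.3 CPM against at most 11.7 CPM in the others. Both libraries lay above all 6 others in 17.8% of the 16132 genes tested and below all 6 in 16.6%, so results below are given with and without them.

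Saa1 made up nearly all of the serum amyloid A RNA. It was at 197, 548, 599 and 669 CPM in WT replicates 1 to 4, and at 313, 293, 160 and 280 CPM in Degs2_KO replicates 1 to 4. WT replicates 2 to 4 were the highest, and the libraries that stood apart were the lowest of their groups. They lay below all 6 others, as 16.6% of tested genes did. The groups overlapped through WT replicate 1, which lay below 3 of the Degs2_KO libraries. The WT mean was 503 ± 210 CPM (SD, n = 4), that of Degs2_KO was 261 ± 68.8 CPM (SD, n = 4), and the fitted log2 fold change was -0.95 ± 0.36 (SE). Without the libraries that stood apart, WT was at 605 ± 61.0 CPM (SD, n = 3) and Degs2_KO at 295 ± 16.6 CPM (SD, n = 3), or 48.7% of WT. The lowest of those WT libraries was then at 548 CPM and the highest Degs2_KO library at 313 CPM, with a log2 fold change of -1.03 ± 0.10 (SE). In the libraries that stood apart, Saa1 and Hoxd13 were below all 6 others and Slc10a2 was above them. The log2 fold change of Saa1 was -0.95 with those 2 libraries and -1.03 without them. The part of gut position in the level of Saa1 was not tested. Of 8 fibroblast markers the 4 tested had values below 0, with 0 called and a median log2 fold change of -0.98. Among all 16132 tested genes 8484 had values below 0, 0% were called and the median was -0.01. Dcn, a matrix proteoglycan, was at -1.32 ± 0.83 (SE). It ranged from 2.40 to 15.3 CPM in WT and from 0.416 to 6.44 CPM in Degs2_KO, so that the groups overlapped. The 8 markers summed to between 4.14 and 31.7 CPM in WT and between 1.41 and 16.4 CPM in Degs2_KO. Their part in the level of Saa1 and Saa2 was not tested. In bulk samples, fewer cells that express a gene and less RNA per cell cannot be told apart.

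Per kilobase of exon Saa1 ranked at place 271 of 16119 genes over the 8 libraries, above 98.3% of them. It held between 97.7% and 99.5% of the summed CPM of Saa1, Saa2 and Saa3. The gene spans bases 46740497 to 46742980 of chromosome 7, minus strand (GRCm38, GENCODE M21), and its coding transcript has 4 exons and 609 bases. The length used for the rank was the union of annotated exons, 2478 bases for Saa1.

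**Figure D1:**
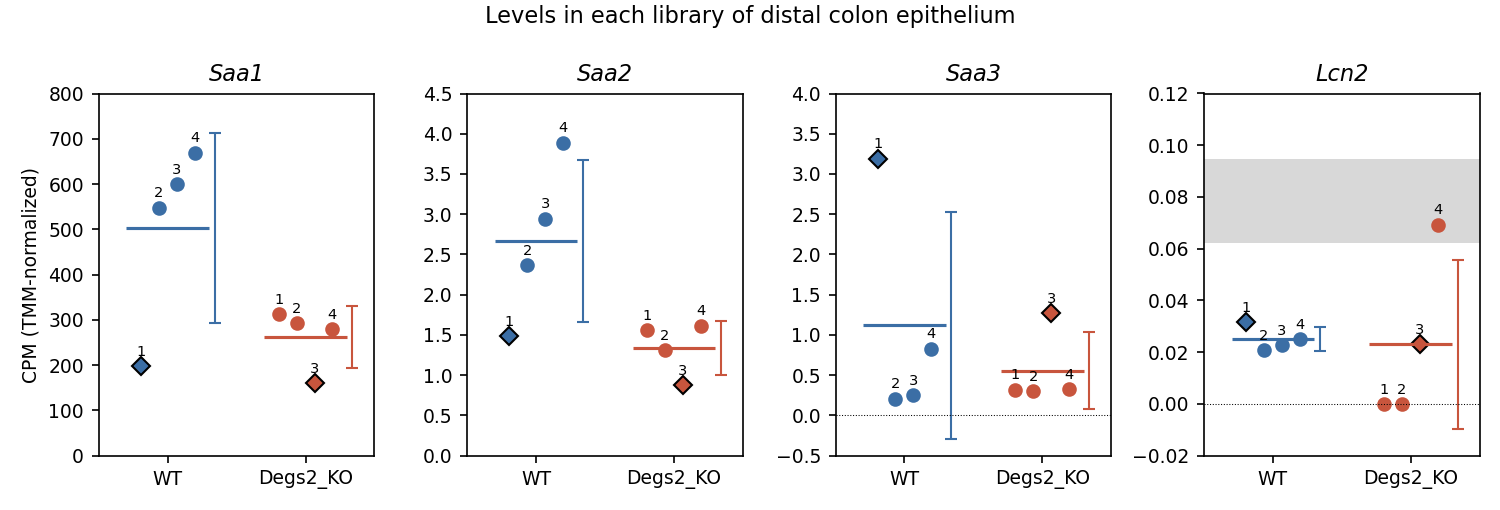
CPM of Saa1, Saa2, Saa3 and Lcn2 in each library, labelled with its replicate number; horizontal lines are group means, bars are SDs (n = 4), diamonds mark WT replicate 1 and Degs2_KO replicate 3, and the grey band is the level of 3 fragments in the 8 libraries. Saa1 and Saa2 are highest in WT replicates 2 to 4, Saa3 is highest in the diamonds, and Lcn2 reaches at most 3 fragments.

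Saa2 is the close copy of Saa1, facing away from it on the plus strand at bases 46751790 to 46754313 of chromosome 7. It was at 1.48, 2.36, 2.94 and 3.89 CPM in WT replicates 1 to 4 and at 1.56, 1.31, 0.878 and 1.62 CPM in Degs2_KO replicates 1 to 4. WT replicates 2 to 4 were again the highest, and WT replicate 1 lay within the range of the Degs2_KO libraries, so that the groups overlapped. These levels came from between 38 and 155 fragments per library. The WT mean was 2.67 ± 1.01 CPM (SD, n = 4) and that of Degs2_KO 1.34 ± 0.336 CPM (SD, n = 4), with a log2 fold change of -0.99 ± 0.32 (SE). Without the libraries that stood apart the means were 3.06 ± 0.768 CPM (SD, n = 3) and 1.49 ± 0.164 CPM (SD, n = 3), and the log2 fold change was -1.03 ± 0.24 (SE). Those groups of 3 did not overlap for Saa1 or Saa2, as was the case, in the same direction, for 5.03% of all tested genes. With all 8 libraries no member had groups that did not overlap, against 0.545% of tested genes lower in Degs2_KO.

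Saa1 and Saa2 differ in level far more than in sequence. Their coding sequences, from the GENCODE transcripts, have 366 bases each and share 348 of them, an identity of 95.1%. The stretch that holds most of the differences, coding bases 70 to 189 counted from the start codon, is shown with the 12 bases that differ in capitals, because these bases separate fragments of the copies.
Saa1: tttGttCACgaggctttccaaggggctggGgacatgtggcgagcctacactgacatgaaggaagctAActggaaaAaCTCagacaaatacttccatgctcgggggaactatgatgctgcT
Saa2: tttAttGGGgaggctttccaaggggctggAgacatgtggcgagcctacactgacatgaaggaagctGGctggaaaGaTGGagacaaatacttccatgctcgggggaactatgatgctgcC
The longest identical coding run is 73 bases, from base 286 to base 358. Of the 560 windows of 50 bases in the Saa1 transcript, 74 (13.2%) also occur in the Saa2 transcript, while no window of 100 bases does. Saa2 stood at between 0.432% and 0.753% of Saa1 in each library, with a median of 0.523%. The sources used here state neither the read length nor how fragments that fit both copies were treated, so the level of Saa2 is uncertain. Its values were whole numbers of fragments, within 0.02, in all 8 libraries, and those of Saa1 were in 5. The smallest step of each library, by which its counts were divided, had been rounded. At the 6244 to 26693 fragments of Saa1 that rounding alone can exceed 0.02, so whole and fractional values of Saa1 cannot be told apart. Among all values up to 100 fragments, 96.9% to 97.2% per library were whole. How shared fragments were treated cannot be read from this. Saa3 is more distant, with an identity of 79.1% to Saa1 and 78.4% to Saa2 over the aligned coding bases.

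The start regions of Saa1 and Saa2 were nearly as alike as their coding parts. Over the 250 bases before the RefSeq start site they shared 238 of 249 aligned bases, or 95.6%. The 3 letter patterns searched on both strands were chosen after the sequences had been seen: GG, any 3 bases and TTTCC for NF-kappaB, TTNNGNAA for C/EBP and TTCNNNGAA for STAT factors. Each 120-base stretch below is written 5′ to 3′ on the gene's own strand, with matches in capitals, to show where the copies part and how the start of Saa3 differs. They lie at chr7:46743051-46743170 (minus strand), chr7:46751643-46751762 (plus strand) and chr7:46715757-46715876 (minus strand) of GRCm38.p6.
Saa1: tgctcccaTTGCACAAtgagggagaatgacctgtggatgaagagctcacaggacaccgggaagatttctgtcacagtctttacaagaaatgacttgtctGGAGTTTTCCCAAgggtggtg
Saa2: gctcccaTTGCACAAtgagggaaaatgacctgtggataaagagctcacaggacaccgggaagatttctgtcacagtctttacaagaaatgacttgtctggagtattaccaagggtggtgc
Saa3: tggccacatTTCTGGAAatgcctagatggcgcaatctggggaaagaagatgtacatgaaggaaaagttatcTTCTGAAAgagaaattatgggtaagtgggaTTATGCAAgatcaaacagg
The NF-kappaB pattern occurred in Saa1, from base -91 to base -82 before the start site, and not in the window of Saa2, Saa3 or Lcn2. Of 32851 RefSeq start regions of the same length, 4.63% hold it. The C/EBP pattern, present in 36.9% of start regions, matched at 2 places in Saa1, of which 1 overlaps the NF-kappaB match, at 1 place in Saa2, at 4 in Saa3 and at 1 in Lcn2. The STAT pattern, present in 7.02%, matched in none of them. A match is a run of letters and not a measured binding site.

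Saa3 went with the libraries that stood apart rather than with genotype. It was at 3.19, 0.207, 0.249 and 0.827 CPM in WT replicates 1 to 4 and at 0.321, 0.298, 1.27 and 0.323 CPM in Degs2_KO replicates 1 to 4. WT replicate 1 and Degs2_KO replicate 3 were above all 6 other libraries, as were 17.8% of tested genes. WT replicate 4 came next, and the other WT libraries were below all Degs2_KO libraries. The fitted log2 fold change was -1.0 ± 0.89 (SE) over all libraries and 0.38 ± 0.70 (SE) without WT replicate 1, so 1 library set its sign, and it was -1.80 ± 0.94 (SE) without Degs2_KO replicate 3. Without both libraries that stood apart it was -0.43 ± 0.56 (SE), the WT mean being 0.428 ± 0.347 CPM (SD, n = 3) and that of Degs2_KO 0.314 ± 0.0138 CPM (SD, n = 3). The counts behind these levels were small, between 10 and 101 fragments. Saa3 spans bases 46711998 to 46715700 of chromosome 7, minus strand.

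Markers of other cells were compared with Saa3 because macrophages are a known source of it. T cell and innate lymphoid markers summed to 40.6 and 32.9 CPM in the libraries that stood apart and to between 7.34 and 22.8 CPM in the others, and 6 of 8 tested markers were above all 6 others in both. Markers of the small intestine and proximal gut summed to 668 and 639 CPM there, against 189 to 397 CPM. Of the 8 tested, 4 were above all 6 others in both libraries and 1 was below. That list holds Slc10a2, which was used above to describe how these libraries stood apart. Macrophage and monocyte markers were at 9.29 and 7.05 CPM in sum there, against 7.78 to 12.1 CPM in the other 6 libraries. Of the 9 tested, 5 were below all 6 others in both libraries and 1 was above. Over all tested genes 17.8% were above all 6 others in both libraries and 16.6% below. The part of cell mixture or gut position in the level of Saa3 was not tested.

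Lcn2 was barely detected. The 4 WT libraries held 1 fragment each, and Degs2_KO replicates 1 to 4 held 0, 0, 1 and 3 fragments. No library exceeded 3 fragments, a level of 0.0622 to 0.0948 CPM that is taken as the detection floor and covers counting error only. No fold is given, since both groups were at or under that floor, and the gene did not pass the filter on low counts. Lcn2 spans bases 32384633 to 32388252 of chromosome 2, minus strand. The genes around it were measured at ordinary levels, with Ciz1 at 68.9 CPM and Ptges2, which makes prostaglandin E2, at 27.4 CPM on average.

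The order of the levels per kilobase of exon was Saa1, Saa2, Saa3 and Lcn2. Saa1 exceeded Saa2 in all 8 libraries, by 7.53 ± 0.26 (SD) on the log2 CPM per kilobase scale (adjusted p = 0.0117, exact 2-sided sign-flip permutation test, adjusted over 3 neighbouring pairs). In CPM the ratio lay between 133 and 232. Saa2 exceeded Saa3 in 6 of 8 libraries, by 1.72 ± 1.61 (SD) on the same scale (adjusted p = 0.0313, same exact test). It was lower than Saa3 in both libraries that stood apart, and without them it was higher in 6 of 6, by 2.54 ± 0.63 (SD). The difference no longer passed, at p = 0.0625 by the exact test, when any 1 of those 6 libraries was left out. Saa3 exceeded Lcn2 in all 8 libraries (adjusted p = 0.0117, same exact test), with a size that is not given because Lcn2 was at its floor. With Saa3 at 10 to 101 fragments and Lcn2 at 0 to 3, that test could hardly come out otherwise, and nothing is read from it. The pairs tested were neighbours in the order of mean level in these same libraries. Where all 8 libraries share a sign, the exact test gives its smallest possible p.

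**Figure D2:**
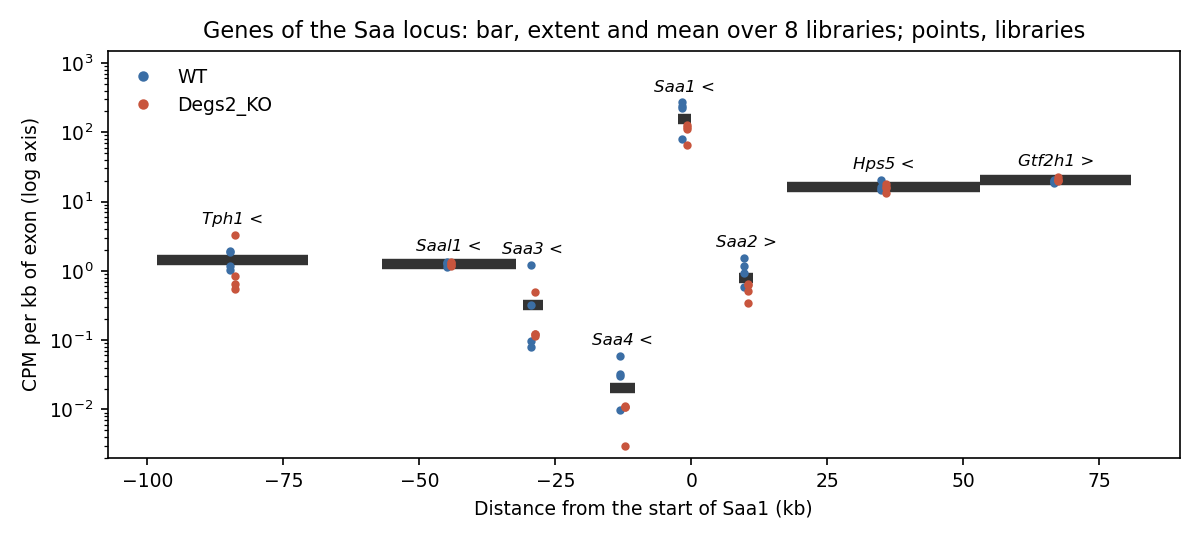
Level of each gene of the Saa locus in CPM per kilobase of exon (log axis) against distance from the start of Saa1 in kilobases; black bars span each gene at its mean over 8 libraries, points are libraries, arrows give the strand, and a level of 0 is drawn near the lower edge. Saa1 stands above its neighbours, with Saa2, Saa3 and Saa4 below the flanking genes Hps5 and Gtf2h1.

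Among the genes annotated around it, Saa1 had the highest level per kilobase. Saa4, a constitutive serum amyloid A gene of the liver that lies between Saa3 and Saa1, had between 0 and 5 fragments per library and was not tested. Saal1, next to Saa3, was at 9.25 to 11.0 CPM in the 8 libraries. Hps5, which takes part in the making of lysosome-related organelles and lies next to Saa2, was at 86.5 to 134 CPM. The fitted log2 fold changes of these neighbours were 0.00 ± 0.10 (SE) for Saal1, -0.08 ± 0.13 (SE) for Hps5 and 0.10 ± 0.07 (SE) for Gtf2h1, a subunit of transcription factor TFIIH. Tph1, the serotonin-making enzyme of enteroendocrine cells at the far side of Saal1, was at -0.18 ± 0.57 (SE).

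Within the genotypes Saa1 and Saa2 correlated over the 8 libraries, and the sign of the relation of Saa3 with them turned with the libraries included. After removal of the group means, and in the 6 libraries that did not stand apart, Pearson's r of log2 CPM was 0.79 for Saa1 and Saa2 (exact permutation p = 0.167, Spearman's rho 0.66, p = 0.25). It was 0.79 for Saa1 and Saa3 (exact permutation p = 0.139, rho 0.60, p = 0.444) and 0.86 for Saa2 and Saa3 (exact permutation p = 0.0278, rho 0.94, p = 0.0278). Adjusted over the 6 pairs of members none passed, with exact permutation values of 0.25, 0.25 and 0.167. Over all 8 libraries r was 0.92 for Saa1 and Saa2 (exact permutation p = 0.00694, adjusted 0.0417, and rho 0.71, p = 0.0747, adjusted 0.215). It was -0.85 for Saa1 and Saa3 (exact permutation p = 0.0556, adjusted 0.167, rho -0.52, p = 0.307). The adjusted exact permutation value for Saa1 and Saa2 no longer passed, at 0.0833 to 0.167, when any 1 library other than Degs2_KO replicate 4 was left out. The libraries that stood apart were also the farthest from the median of Saa1. The relation of Saa1 with Saa2 kept its sign without them but no longer passed, and that of Saa1 with Saa3 rests on them. Whether fragments shared between the Saa copies take part in the first was not tested.

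**Figure D3:**
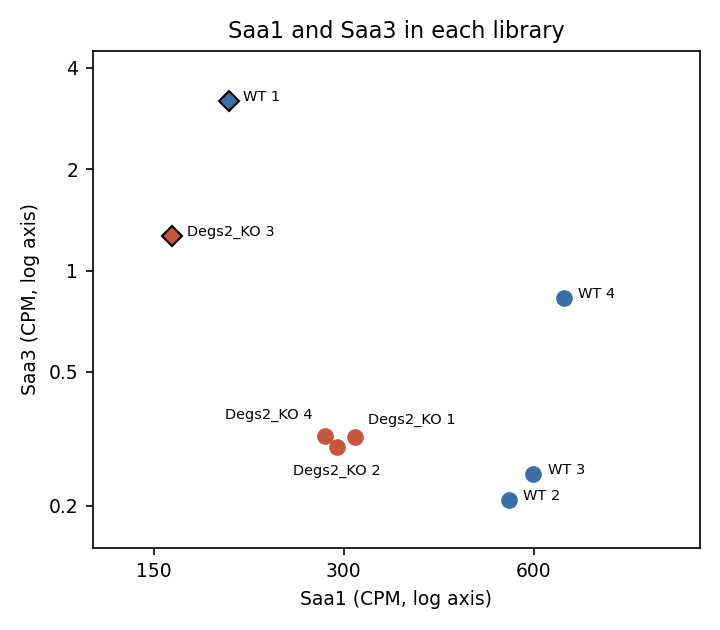
Saa3 against Saa1 in each of the 8 libraries, both in CPM on log axes, with WT in blue, Degs2_KO in red and diamonds for the libraries that stood apart. The diamonds sit at low Saa1 and high Saa3, while WT replicates 2 to 4 lie at 548 to 669 CPM of Saa1 and Degs2_KO replicates 1, 2 and 4 at 280 to 313 CPM.

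The genes most like Saa1 and Saa3 in this group-centred variation were ranked among 11028 genes with a mean log2 CPM of at least 1. For Saa1 they were Kmt2e, a chromatin regulator, Tfcp2, a transcription factor, Slc8b1, the mitochondrial sodium-calcium exchanger, Mpzl2, an adhesion protein, and Hsd11b2, which inactivates corticosteroids, all with r of 0.99. In the 6 other libraries alone their r was 0.92, 0.67, 0.62, 0.90 and 0.58 in that order. Kmt2e was at 121 and 118 CPM in the libraries that stood apart and between 131 and 147 CPM in the others, a far smaller span than that of Saa1. For Saa3 they were Ldhb, a lactate dehydrogenase subunit, Ccdc12, Ndufs7, a subunit of respiratory complex I, Rassf4 and Tmigd1, a brush border adhesion protein, with r of 0.99. Their r in the 6 other libraries was 0.98, 0.96, 0.93, 0.97 and 0.99. Since these 6 also entered the rankings, r within them is no separate check, for Saa1 as for Saa3. Most of the spread of Saa3 among the 6 came from WT replicate 4, whose 0.827 CPM compares with 0.207 to 0.323 CPM elsewhere. Whether the relation holds without that library was not tested. Tmigd1 was at 104 and 102 CPM in the libraries that stood apart and between 13.9 and 47.3 CPM in the others. All these values share libraries and their depth, so they are descriptions of these 8 libraries. Lcn2 was not ranked, having at most 3 fragments.

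The fit across all genes called no member between the genotypes, from which nothing is read since the members were picked on that contrast. It was a fit that called 0% of the 16132 genes. Degs2 itself, at -1.07 ± 0.15 (SE), was not called by it. The quasi-likelihood test of edgeR, adjusted by Benjamini-Hochberg, found 0 genes, and 183 (1.13%) at an unadjusted p under 0.05. DESeq2 called 2 genes (0.0124%), neither of them a member, and limma-voom 0. The fitted values of Saa1, Saa2 and Saa3 were -0.95, -0.99 and -1.0, against a median of -0.01 over all tested genes, and that contrast had been used to pick them.

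**Figure D4:**
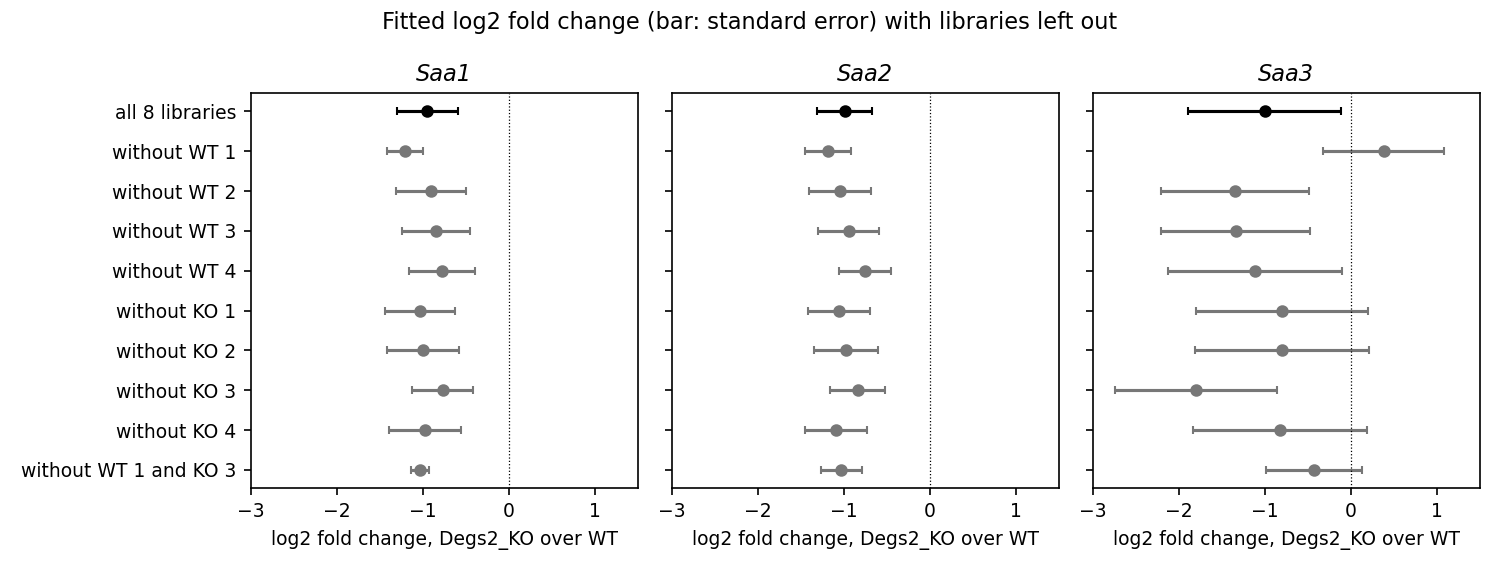
Fitted log2 fold change, Degs2_KO over WT, of Saa1, Saa2 and Saa3 with all 8 libraries (black) and with libraries left out (grey); bars are standard errors and the dotted line is no change. Saa1 and Saa2 stay below 0 in each setting shown, and Saa3 is above 0 without WT replicate 1.

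The other acute-phase genes ranged from undetected to well expressed. Of 24 on the list, 7 had no fragment in any library, 11 had at most 3 fragments in every library, these 7 included, and 7 were tested. Of those 7, 3 had values above 0 and 4 below, 0 were called by edgeR over all genes, and the median log2 fold change was -0.25 against -0.01 for all tested genes. The most abundant were Pglyrp1, a peptidoglycan-binding protein, at 123 CPM with 0.03 ± 0.09 (SE), and Cd14, the lipopolysaccharide co-receptor, at 30.7 CPM with 0.10 ± 0.21 (SE). C3, the central complement protein, was at 23.0 CPM with -0.98 ± 0.67 (SE), and Steap4, a metalloreductase induced by inflammation, at 3.59 CPM with -1.10 ± 0.27 (SE). Both lay near the values of Saa1 and Saa2, and neither was called.

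Most genes of the pathways known to act upstream of the Saa genes passed the filter on low counts, some at low levels. Osmr, a receptor of the IL-6 family list, was at 0.286 CPM on average. Il22, listed with the lymphoid markers, was at 0.00286 CPM and was not tested. None of the pathway genes was called between the genotypes, in a fit that called 0% of the 16132 genes and did not call Degs2. The lack of a call does not show that a gene was unchanged. Over all tested genes 7648 had values above 0 and 8484 below. Of the 14 genes for IL-22 and IL-6 family receptors and STAT3 signalling, all were tested, 3 had values above 0 and 11 below, and 0 were called, with a median of -0.06. Stat3 was at 147 CPM with -0.09 ± 0.11 (SE) and Jak1, a kinase bound to these receptors, at 170 CPM with 0.06 ± 0.11 (SE). Of 24 genes leading from IL-1, IL-17, TNF and Toll-like receptors to NF-kappaB, 23 were tested, 7 above 0 and 16 below, with 0 called and a median of -0.03. Nfkb1, an NF-kappaB subunit, was at 86.9 CPM with -0.03 ± 0.07 (SE), and Nfkbiz, a nuclear cofactor of it, at 73.6 CPM with -0.03 ± 0.16 (SE). Of 12 C/EBP, ROR and retinoid factors 11 were tested, 4 above 0 and 7 below, with 0 called and a median of -0.00. Cebpg was at 122 CPM with 0.02 ± 0.07 (SE) and Cebpd, itself induced in the acute phase, at 45.4 CPM with -0.02 ± 0.22 (SE).

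The genes for receptors and partners of the proteins were measured as well. Of 10 genes for serum amyloid A 5 were tested, 3 above 0 and 2 below, with 0 called and a median of 0.09. The list's most abundant gene was Scarb1, a lipoprotein receptor that takes up serum amyloid A, at 21.3 CPM with 0.21 ± 0.12 (SE). The formyl peptide receptors Fpr1 and Fpr2 had no fragment in any library. Of 6 genes for lipocalin-2 3 were tested, 2 above 0 and 1 below, with 0 called and a median of 0.01. Its most abundant gene was Met, the receptor for hepatocyte growth factor, at 79.8 CPM with 0.01 ± 0.16 (SE). Slc22a17, a lipocalin-2 receptor, was at 1.52 CPM with -0.10 ± 0.48 (SE).

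Other epithelial genes that respond to microbes had values on both sides of 0. Of 28, 23 were tested, 8 with values above 0 and 15 below, and 0 were called, with a median of -0.13. Over all tested genes 7648 had values above 0 and 8484 below, with a median of -0.01. Pigr, which carries antibodies to the lumen, was at 8431 CPM with -0.03 ± 0.14 (SE). Ang4, an antimicrobial ribonuclease, was at 1389 CPM with 0.47 ± 0.36 (SE), and Retnlb, a goblet cell product that binds bacterial membranes, was at 472 CPM with 0.30 ± 0.51 (SE). Nlrp6, an inflammasome sensor, was at 328 CPM with -0.02 ± 0.15 (SE). Farthest below 0 were Reg3b at -2.43 ± 1.63 (SE) and Reg3g at -1.69 ± 1.28 (SE), both named after their values were seen.

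**Figure D5:**
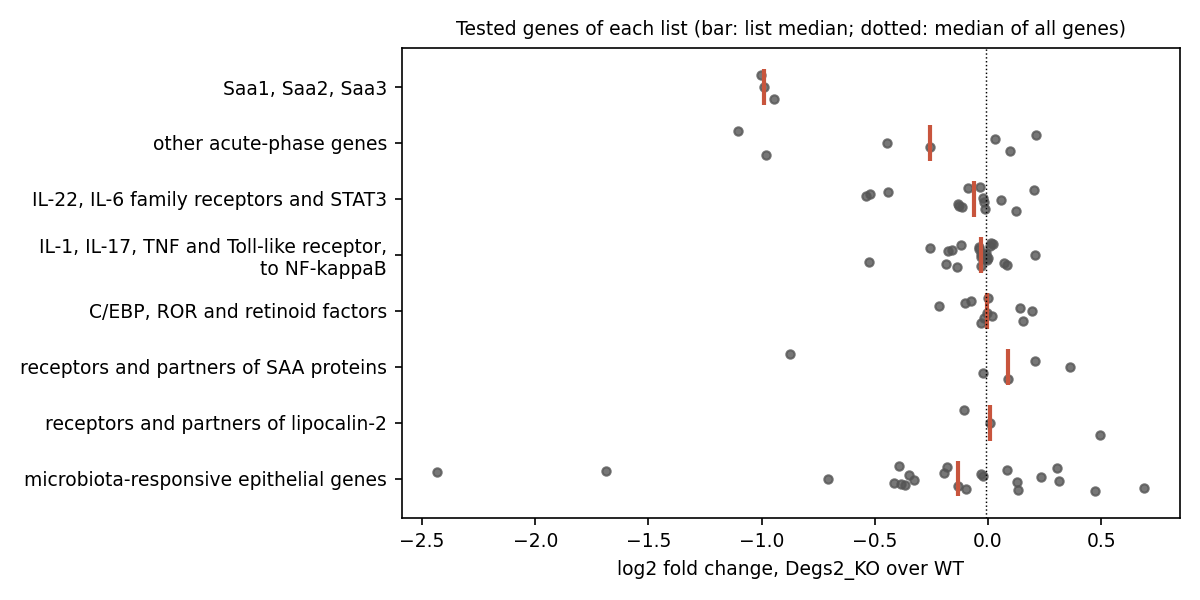
Log2 fold change, Degs2_KO over WT, of each tested gene (points) by list, with the list median (red bar) and the median of all tested genes (dotted line). Saa1, Saa2 and Saa3, chosen with these values known, lie near -1, while the medians of the 7 other lists plotted, which leave out the markers of cell types and gut position, lie between -0.25 and 0.09.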

How the data were processed

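RNA was sequenced from 4 WT and 4 Degs2_KO libraries. Cutadapt 1.9, Cufflinks 2.1.1, Cuffdiff and TopHat2 2.0.10 were used with mm10 (GRCm38), per the submitters' processing notes. Estimated counts per gene were deposited, with each library scaled by the authors by 1 factor: divided by its smallest step (0.871 to 1.31), between 96.9% and 97.2% of values up to 100 fragments were whole within 0.02. Neither the strand setting nor the annotation is stated in the sources used here. Of 54141 IDs 54074 matched a symbol, 47 genes with a failed estimate were left out, and 24 columns of count variances were not used.

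Estimated counts were rounded, filtered (filterByExpr, minimum count 10, total 15, leaving 16132 genes), TMM-normalized and tested by edgeR 4.0.16 in R 4.3.3 with the 2-sided quasi-likelihood F test, Benjamini-Hochberg adjustment at 0.05 and genotype as the only term. Since the labels name no separate mice, p-values cover the spread between samples only, which may be technical. CPM uses the deposited scaled counts, and log2 CPM a prior count of 2. The SE of a fitted log2 fold change was its absolute value divided by the square root of the F statistic. Correlations used all 576 within-group permutations (36 for 6 libraries), and levels 256 sign flips. The scripts were tested on simulated data.

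The members and lists were chosen with earlier results of these data known. Named genes were Degs2, the members, Saa4, neighbouring genes, the 5 most alike genes and, per list, up to 5 tested genes of highest mean CPM. Reg3b, Reg3g, Mpo, Elane, Fpr1, Fpr2, Dlk1, Osmr and Il22 were named after their values were seen. Alternatives were limma-voom (limma 3.58.1), DESeq2 1.42.0, other scalings, filters, prior counts and lengths, replicate and ID blocks, and leaving out libraries. Coding sequences are from GENCODE M21, start regions from RefSeq (GRCm38.p6); coordinates follow GENCODE M21.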

Additional observations from a re-analysis of the deposited data

Results flagged for a closer look

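Single libraries far from the other 3 of their group were looked for in 28 groups of 4 libraries (14 genes) and 7 values stood out, all in WT replicate 1 or Degs2_KO replicate 3. Chance marks about 1 group in 20, but that rate does not hold for Kmt2e, Tmigd1, Slc10a2, Reg3b and Reg3g, which were named or singled out for their values in these libraries. Saa3 was at 1.27 CPM in Degs2_KO replicate 3, where the other Degs2_KO libraries had 0.298 to 0.323 CPM. In the same library Reg3b was at 13.7 CPM, Reg3g at 7.60 CPM, Slc10a2 at 70.3 CPM and Tmigd1 at 102 CPM, each the highest of its group, and Kmt2e was the lowest at 118 CPM. In WT replicate 1 Slc10a2 was at 101 CPM, against 3.32 to 11.7 CPM in the other WT libraries. The members Saa1, Saa2 and Lcn2 had no such value in either group.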

How the results depend on the processing

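The log2 fold changes of Saa1 and Saa2 kept their sign in every setting run, and that of Saa3 lay between -1.80 and 0.38 with 1 library left out, above 0 only without WT replicate 1. The number of called genes was 0 by edgeR in every setting and 2 by DESeq2 (Degs2 and Dlk1), and 0 list members were called in any setting of the lists. The 183 genes at an unadjusted p under 0.05 became 401 without a filter, 782 when WT replicate 1 was left out, 298 for Degs2_KO replicate 1, 292 for Degs2_KO replicate 3 and 650 for both WT replicate 1 and Degs2_KO replicate 3, which stood apart. Replicate numbers did not pair the samples (correlations of same-numbered libraries from -0.56 to 0.44): the replicate block gave 99 such genes and the block on 3 pairs of adjoining ID numbers 79, with 0 calls each. Without the libraries that stood apart r was 0.79 for Saa1 and Saa2, no longer past the threshold, and turned to 0.79 for Saa1 and Saa3 and to 0.86 for Saa2 and Saa3. The values with Saa3 there rest mostly on WT replicate 4. Leaving out 1 library at a time gave r between 0.869 and 0.961 for Saa1 and Saa2, between -0.993 and -0.572 for Saa1 and Saa3 and between -0.902 and -0.192 for Saa2 and Saa3. The lead of Saa2 over Saa3 was between 1.48 and 2.11 on the log2 scale with 1 library left out and 2.54 without both. The cause of these shifts was not tested. That 7 libraries allow fewer sign flips acts on the p-value of the lead and not on its size. The length of the coding transcript, an alternative added after the data were seen, kept the order of levels. Depth limits Lcn2 and Saa4, at 0 to 5 fragments, for which no difference was detectable.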

Other observations

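Reg3b and Reg3g, antimicrobial lectins named after their values were seen, were highest in WT replicate 1, which also had the most Saa3. Reg3b was at 64.2 CPM in WT replicate 1 and 13.7 CPM in Degs2_KO replicate 3, with a range of 0.181 to 14.4 CPM over the 6 remaining libraries. Reg3g was at 20.3 and 7.60 CPM in those libraries and between 0.206 and 10.8 CPM in the others.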
